A study of Mus musculus with 6 samples.

Results

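The genes described here code for the intermediate filament proteins of peripheral neurons: the neurofilament light, medium and heavy chains (Nefl, Nefm and Nefh), peripherin (Prph) and alpha-internexin (Ina). They were chosen by name, and all 5 were found among the 54242 gene symbols of the deposited table, with 9 of its 140992 transcripts. The RNA is from lumbar (L4-6) dorsal root ganglia, where the cell bodies of sensory neurons lie, of male C57bl/6 mice aged 8-10 weeks. The 3 fasted libraries came from mice on an intermittent fasting diet for 10 days, and the 3 fed libraries from mice with free access to food (ad libitum). Per the labels' protocols, both groups were killed after 24 hours, with no statement of what the 24 hours follow. In both groups neurons were enriched from the enzyme-treated ganglia over BSA. The labels leave unsaid whether each library stands for 1 mouse or several pooled mice, and a p-value here reflects library-to-library spread that can be technical.

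Neurofilaments are long polymers that fill large myelinated axons and set their diameter. The light chain forms the core with the medium and heavy chains, whose long tails project from the filament and are phosphorylated on repeats of lysine, serine and proline. Peripherin, an intermediate filament protein typical of the peripheral nervous system, is most prominent in small sensory neurons, and alpha-internexin is known mainly from developing and central neurons. After a nerve is cut, sensory neurons are known to lower their neurofilament messages; the title of this series is about axonal regeneration and leptin.

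The heavy chain message carries the repeats in a single exon. In GENCODE M21, Nefh lies on chromosome 11 from 4938754 to 4948064 (GRCm38, minus strand) and has 1 listed transcript of 3994 bases and 4 exons. A search for in-frame codons for lysine, serine and proline found 51 such triplets, all in exon 4. The coding sequence of the main Nefm transcript held 4, and those of Nefl, Prph and Ina held 0. The 60 codons of Nefh with the most triplets, codons 519 to 578, are shown because they are what sets this subunit apart at the level of sequence; capitals mark the 10 triplets. They lie at chr11:4940884-4941063 on the minus strand.
Nefh repeat: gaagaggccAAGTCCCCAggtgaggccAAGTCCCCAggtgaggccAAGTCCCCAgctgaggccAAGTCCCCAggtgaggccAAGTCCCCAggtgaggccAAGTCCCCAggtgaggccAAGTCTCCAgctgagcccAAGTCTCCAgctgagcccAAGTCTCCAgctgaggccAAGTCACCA

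Peripherin is the only one of the 5 genes with more than 1 transcript above 1% of its message. Prph lies on chromosome 15 from 99055174 to 99058978 (GRCm38, plus strand) and has 4 listed transcripts. The spliced transcript (ENSMUST00000024249.4, 9 exons, 1757 bases) lacks an intron of 96 bases that is kept, in frame and without a stop codon, in ENSMUST00000230021.1 (1862 bases) and ENSMUST00000047104.14 (1863 bases). The kept intron adds 32 codons. Both forms of this junction are shown because these bases are what tells the intron-keeping transcripts from the spliced one; capitals mark the 96 intron bases, between 20 bases of exon on each side, at chr15:99056917-99057052 on the plus strand.
Prph, intron kept: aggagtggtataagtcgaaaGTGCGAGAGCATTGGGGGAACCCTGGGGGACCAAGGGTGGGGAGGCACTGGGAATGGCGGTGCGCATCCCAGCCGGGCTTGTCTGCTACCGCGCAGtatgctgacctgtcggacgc
Prph, spliced: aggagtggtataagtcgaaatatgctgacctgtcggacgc
The intron-keeping transcripts differ from each other by 3 bases at the start of the last exon, in capitals below (chr15:99057876-99058624, plus strand, with the intron before it spliced out), and slightly in where they begin and end. The spliced transcript has these 3 bases as well, so ENSMUST00000230021.1 is the one that lacks them.
Prph, last exon with 3 more bases: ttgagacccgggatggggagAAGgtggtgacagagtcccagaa
Prph, last exon without them: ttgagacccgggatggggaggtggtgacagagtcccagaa

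Values are TPM, the authors' estimate of each transcript as a share of all transcripts, corrected for length and scaled to 1000000 per library, so levels of different genes can be compared. TPM keep no sequencing depth, so no counting interval can be given. Markers of neurons were present, but without an unenriched library the enrichment itself cannot be judged. All 16 pan-neuronal genes averaged 1 TPM or more, among them Tubb3 at 2620.9 to 2918.8 TPM over the 6 libraries. The sensory neuron transcription factor Pou4f1 was at 225.7 to 248.0 TPM. Isl1, another such factor, was at 81.2 ± 2.71 TPM in fasted and 77.3 ± 3.12 TPM in fed libraries (SD, n = 3 each). The sensory neuron actin-binding gene Avil was at 502.3 to 583.2 TPM over the 6 libraries. Other cells were present too. The sum of 9 myelinating Schwann cell markers was 7716 to 8560 TPM in fasted and 7424 to 8296 TPM in fed libraries. That of 8 satellite glia markers was 5779 to 6003 TPM in fasted and 5759 to 6531 TPM in fed libraries. Apoe, counted in the latter, averaged 4560 TPM in fasted and 4742 TPM in fed libraries. Fed replicate 2 stood apart, with 8.86% of its TPM in 13 mitochondrially encoded genes, against 4.74% to 5.15% in fasted libraries and 5.62% and 6.79% in the other fed ones. The sum of 9 skeletal muscle markers, none of them at 0 in all libraries, was 260.0 to 505.5 TPM in fasted libraries and 452.7, 3693 and 558.6 TPM in fed replicates 1, 2 and 3. Pvalb, which sensory neurons also express, is among the 9, and without it the sum was 58.7 to 270.6 TPM in fasted libraries and 237.8, 3150.2 and 328.2 TPM in fed ones. Apart from muscle, the summed level of 10 macrophage markers was 56.8 to 72.8 TPM in fasted and 85.6 to 103.9 TPM in fed libraries, that of 8 endothelial markers 140.3 ± 8.37 TPM in fasted and 158.7 ± 12.3 TPM in fed libraries (SD, n = 3 each), that of 7 fibroblast markers 1639.9 to 1798 TPM in fasted and 1823 to 1894 TPM in fed libraries, and that of 5 red cell markers 1715 to 3277 TPM in fasted and 1284 to 1564 TPM in fed libraries. None of these 4 sums overlapped between the diets, where 17.8% of all tested genes did not overlap in either direction. The fibroblast sum follows its largest part, Apod, at 976.9 ± 51.0 TPM in fasted and 1109 ± 33.5 TPM in fed libraries. Of the 7 fibroblast markers, 4 had a log2 fold change above 0 and 3 below. Lum was higher in fasted libraries without overlap, at 37.1 ± 0.855 TPM against 31.9 ± 0.673 TPM. A fibroblast sum without Apod was not made. The sums of Schwann cell, satellite glia and muscle markers did overlap. The part of all these cells in the results was not tested.

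The neurofilament and peripherin messages were among the most abundant in these libraries, which were prepared by enriching neurons. The ranks below need not hold for the whole ganglion. Ordered by TPM, Nefl came first, then Nefm, Prph, Nefh and Ina, and this order was the same in all 6 libraries. Nefl ran from 3727 to 4507 TPM, Nefm from 2737 to 3269, Prph from 2104 to 2344, Nefh from 1442 to 1639 and Ina from 34.1 to 37.2, so no neighbours in the order overlapped. By mean TPM over the 6 libraries Nefl was the 12th most abundant gene of the table, Nefm the 24th, Prph the 37th, Nefh the 60th and Ina the 5005th. There were 106.9 to 127.2 Nefl messages for each Ina message. Together the 5 genes made up 1.17%, 1.09% and 1.17% of all TPM in fasted replicates 1, 2 and 3, against 1.11%, 1.00% and 1.09% in fed replicates 1, 2 and 3.

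No member passed the test between the diets. All 5 means were higher in fasted libraries, by 1.46% for Ina to 8.46% for Nefm, and the groups overlapped for each gene, where 17.8% of all tested genes did not overlap. With limma on log2(TPM + 1), a linear model per gene with Benjamini-Hochberg adjustment over the 15097 genes that averaged 1 TPM or more, 0 of 5 had an adjusted p under 0.05 and 0 had an unadjusted p under 0.05. Over all tested genes, 0.00662% (1 gene) passed the adjusted threshold and 9.94% had an unadjusted p under 0.05. Those with an unadjusted p under 0.05 were 1015 higher and 486 lower in fasted libraries on TPM as deposited. With libraries scaled by median of ratios, 567 were higher and 733 lower. With rescaling by pan-neuronal genes, 205 were higher and 1416 lower. A positive sign is common here, since 62.5% of all tested genes had a log2 fold change above 0. The median log2 fold change was 0.07 over the 5 genes and 0.03 over all tested genes.

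**Figure D1:**
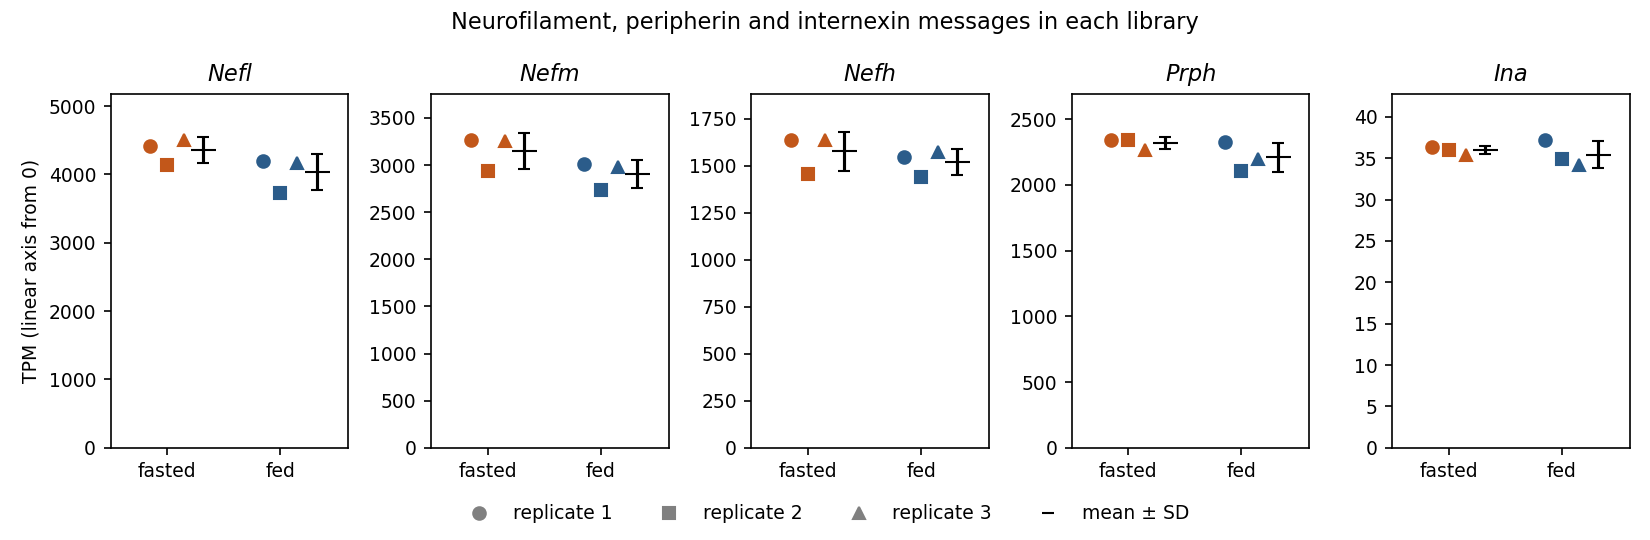
TPM of Nefl, Nefm, Nefh, Prph and Ina in each of the 3 fasted and 3 fed libraries (points; the shape marks the replicate number), with the mean and SD of each group, on linear axes from 0. The groups overlap for every gene, and fed replicate 2 is the lowest library for all but Ina.

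Nefl, the light chain that every neurofilament needs (chromosome 14, 68083863 to 68089095, GRCm38), was at 4417, 4140 and 4507 TPM in fasted replicates 1, 2 and 3, against 4202, 3727 and 4165 TPM in fed replicates 1, 2 and 3. Of the fasted libraries, 2 lay above every fed one and fasted replicate 2 lay below fed replicates 1 and 3. Its level was 1.08-fold in fasted over fed libraries, with a 95% interval of 0.974 to 1.20 (log2 fold change 0.11 with a standard error of 0.06; limma, adjusted p = 0.54, 0.44 to 0.80 over the alternatives). Without fed replicate 2 the log2 fold change was 0.06, and under quantile normalization it was 0.20, with an unadjusted p of 0.033 and an adjusted p of 0.54 (limma).

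Nefm, the medium chain, is on chromosome 14 on the other strand from Nefl. Its annotated span (68082590 to 68124846) takes in Nefl because of a minor long transcript. The main Nefm transcript (68119283 to 68124846) lies 30187 bases from the end of Nefl. Nefm was at 3269, 2933 and 3256 TPM in fasted libraries, against 3008, 2737 and 2976 TPM in fed ones. As for Nefl, fasted replicates 1 and 3 lay above every fed library and fasted replicate 2 among them. The ratio was 1.08-fold, with a 95% interval of 0.979 to 1.20 (log2 fold change 0.12 with a standard error of 0.06; limma, adjusted p = 0.53, 0.43 to 0.79 over the alternatives), and the log2 fold change was 0.07 without fed replicate 2. Under quantile normalization it was 0.18, with an unadjusted p of 0.045 and an adjusted p of 0.56 (limma). Without fasted replicate 2 it was 0.17, with an unadjusted p of 0.044 and an adjusted p of 0.62 (limma). A second Nefm transcript, ENSMUST00000111089.7, held 0.175% ± 0.024 of the Nefm TPM in fasted and 0.193% ± 0.037 in fed libraries (SD, n = 3 each). Of the 2381 bases of its last exon, 1108 lie inside Nefl exons on the other strand. The library kit is stranded per the labels, but the sources used here do not say whether the quantification used strand. The level of this transcript, 5.51 ± 0.921 TPM in fasted and 5.61 ± 1.04 TPM in fed libraries (SD, n = 3 each), is therefore uncertain beside that of Nefl.

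Nefh, the heavy chain with the repeats shown above, was at 1639, 1455 and 1636 TPM in fasted libraries, against 1548, 1442 and 1572 TPM in fed ones. Fasted replicate 2 and fed replicate 2 were nearly level at the bottom, and the others lay between 1548 and 1639. The ratio was 1.04-fold, with a 95% interval of 0.938 to 1.14 (log2 fold change 0.05 with a standard error of 0.06; limma, adjusted p = 0.76, 0.61 to 0.96 over the alternatives). Without fed replicate 2 the log2 fold change was 0.01, and without fasted replicate 2 it was 0.11. When libraries were rescaled by the pan-neuronal genes it was -0.03.

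Prph was at 2344, 2344 and 2263 TPM in fasted libraries, against 2326, 2104 and 2201 TPM in fed ones. Fasted replicate 2, low for the neurofilament genes, was as high as any library for Prph. The ratio was 1.05-fold, with a 95% interval of 0.968 to 1.14 (log2 fold change 0.07 with a standard error of 0.05; limma, adjusted p = 0.62, 0.44 to 0.92 over the alternatives). Without fed replicate 1 the log2 fold change was 0.11, with an unadjusted p of 0.048 and an adjusted p of 0.44 (limma). It was 0.03 on the log2 scale without fed replicate 2 and -0.01 after rescaling by pan-neuronal genes.

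Ina (chromosome 19, 47014698 to 47025327) was at 36.4, 36.0 and 35.4 TPM in fasted libraries, against 37.2, 34.9 and 34.1 TPM in fed ones. The fasted values lay within the range of the fed ones. The ratio was 1.01-fold, with a 95% interval of 0.941 to 1.09 (log2 fold change 0.02 with a standard error of 0.05; limma, adjusted p = 0.87, 0.62 to 0.98 over the alternatives). Without fed replicate 2 the log2 fold change was 0.01. Its sign turned with the scaling, to -0.01 under median-of-ratios scaling and -0.06 after rescaling by pan-neuronal genes.

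The pan-neuronal genes, as a sum, were lowest in fed replicate 2, like Nefl, Nefm, Nefh and Prph. Ina was lowest in fed replicate 3. The 16 pan-neuronal genes summed to 13904, 13552 and 14034 TPM in fasted libraries, against 13595, 12297 and 13130 TPM in fed ones (exact permutation p = 0.2). Of the 16, 15 had a log2 fold change above 0 and 1 below, so dividing by them lowers the fold changes of other genes. In bulk RNA, fewer cells of a type and less RNA per cell cannot be told apart. Dividing each library by the geometric mean of its pan-neuronal genes narrowed the spread of Nefl over the 6 libraries, from a coefficient of variation of 6.48% to 2.79%, and that of Prph from 4.24% to 2.85%, and widened that of Ina from 3.09% to 4.13%. Rescaled in this way Nefl averaged 4231 ± 118.0 in fasted and 4143 ± 119.7 in fed libraries (SD, n = 3 each), and its log2 fold change was 0.03. Nefm had 0.03 as well, and Nefh, Prph and Ina were below 0, at -0.03, -0.01 and -0.06. Fed replicate 2 also had the most muscle and mitochondrial RNA. With TPM rescaled without the mitochondrially encoded genes, the log2 fold change was 0.08 for Nefl, 0.08 for Nefm, 0.02 for Nefh, 0.04 for Prph and -0.01 for Ina. Without fed replicate 2, the value of each of the 5 genes, given above, was smaller than with it. The part of the muscle RNA was not tested.

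**Figure D2:**
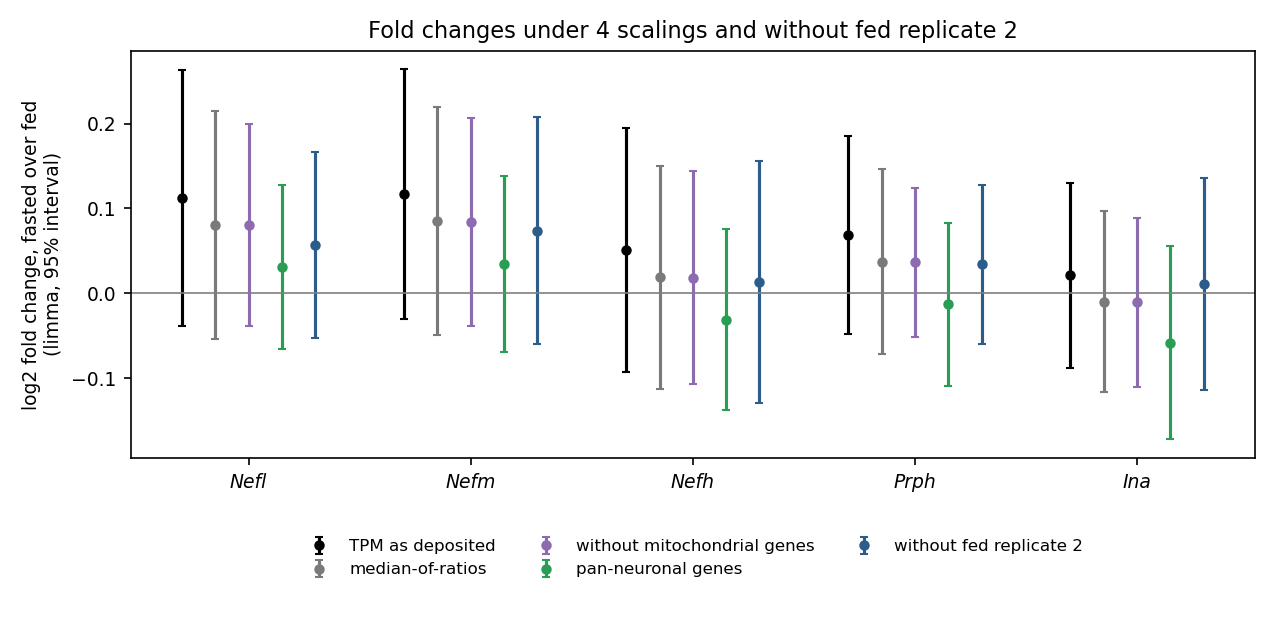
Log2 fold change of each gene, fasted over fed, from limma with its 95% interval, on TPM as deposited, scaled by median of ratios, without mitochondrial genes or by pan-neuronal genes, and without fed replicate 2. Every interval plotted includes 0. Among those not plotted, the intervals of Nefl and Nefm under quantile normalization lie above 0. So do those of Nefm with a replicate block or without fasted replicate 2, and of Prph without fed replicate 1. The points move down together from the deposited TPM to the pan-neuronal scaling, where Nefl is at 0.03 and Ina at -0.06.

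The proportions of the subunits, which a single scaling factor per library leaves as they are, overlapped between the diets on the deposited TPM. For each Nefl message there were 0.740, 0.708 and 0.723 Nefm messages in fasted libraries, against 0.716, 0.734 and 0.715 in fed ones (log2 ratio, exact permutation p = 0.9, two-sided). Nefh messages per Nefl message were 0.371, 0.351 and 0.363 in fasted libraries, against 0.368, 0.387 and 0.377 in fed ones. Fed replicates 2 and 3 had the highest Nefh proportions, fasted replicate 2 the lowest, and fasted replicate 1 lay above fed replicate 1 (difference of log2 ratios -0.06, exact permutation p = 0.2).

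Peripherin is the member that belongs to another class of filament. Neurofilament messages per Prph message numbered 3.98, 3.64 and 4.15 in fasted replicates 1, 2 and 3, and 3.77, 3.76 and 3.96 in fed replicates 1, 2 and 3. Fasted replicates 2 and 3 held the lowest and the highest value of all libraries, so the fasted group spanned the fed one. Prph made up 20.3% ± 1.09 of the 5-gene TPM in fasted and 20.7% ± 0.479 in fed libraries (SD, n = 3 each; exact permutation p = 0.6). Over the 9 proportions tested, the smallest exact permutation p was 0.2 and each adjusted p was 0.675 or above; with 3 against 3 libraries the smallest p possible is 0.1. The summed TPM of the 5 genes was 11706, 10908 and 11698 in fasted libraries, against 11122, 10046 and 10948 in fed ones, a difference of 0.10 on the log2 scale (exact permutation p = 0.3). It was 0.05 without fed replicate 2, 0.06 under scaling by median of ratios and 0.01 after rescaling by pan-neuronal genes.

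**Figure D3:**
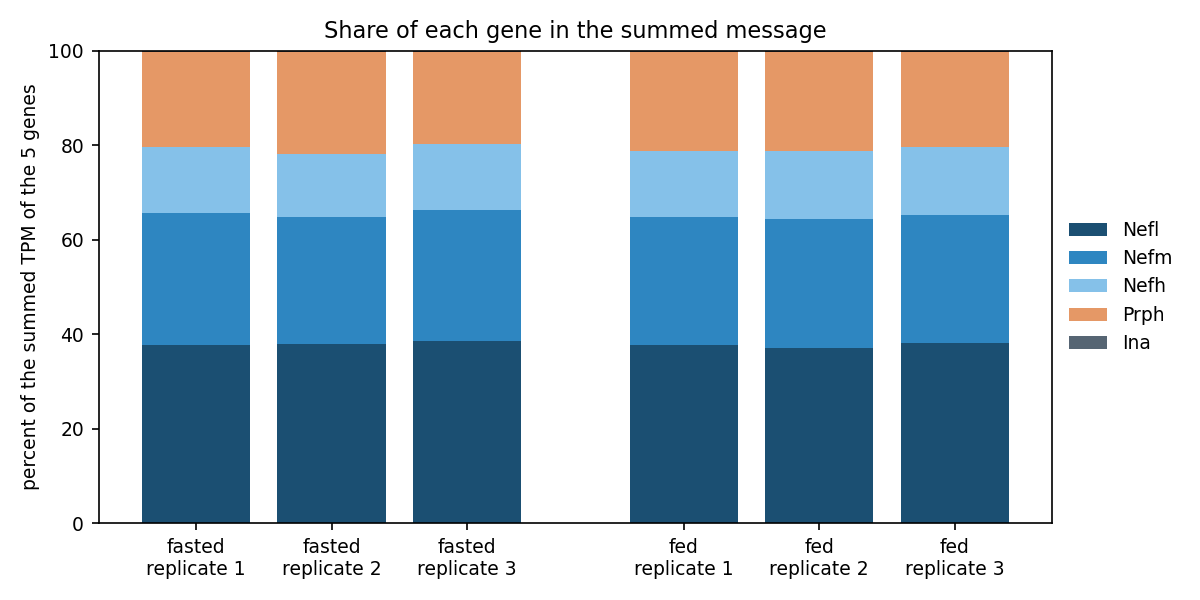
Share of each gene in the summed TPM of the 5 genes, in percent, for the 3 fasted and 3 fed libraries (stacked bars). Nefl holds 37.1% to 38.5% and Prph 19.3% to 21.5% in every library, and Ina, at 0.303% to 0.347%, is too thin to see.

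Among the Prph transcripts, the shares of the spliced and the short form did not overlap between the diets. The spliced transcript held 86.9%, 86.9% and 87.0% of Prph TPM in fasted libraries, against 87.8%, 88.3% and 87.2% in fed ones, a difference of -0.85 percentage points. Its own level was not lower in fasted libraries, at 2014 ± 39.2 TPM against 1940 ± 94.5 TPM in fed ones, with overlap (SD, n = 3 each). The log2 fold change of this level was 0.055 (limma, adjusted p = 0.78). The short transcript, ENSMUST00000229268.1, has 397 bases in 3 exons and a coding sequence of 48 codons annotated without a stop. It held 10.14%, 10.14% and 10.11% in fasted libraries, against 9.10%, 8.51% and 10.05% in fed ones, a difference of 0.91 percentage points. Without fed replicate 2 this difference was 0.56 percentage points and without fed replicate 3 it was 1.33. The fasted libraries lay close together (SD 0.018), and fed replicate 3 came within 0.1 percentage points of them. Both differences had an exact permutation p of 0.1, the smallest that 3 against 3 libraries can give, and an adjusted p of 0.2 over the 4 shares tested. They are not independent, since the spliced and short forms together hold nearly all Prph TPM and a larger share of one leaves less for the other.

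Shares without overlap were common. Over all genes with several transcripts, 9.9% of transcript shares did not overlap between the diets in either direction, and in genes of at least 1000 TPM it was 10.9%. Of the 397 bases of the short transcript, 263 lie in exons of the spliced one, and how reads were divided between them is not known from TPM. TPM gives such a short transcript weight out of proportion to its bases. Weighted by annotated length, a choice made after seeing the data, its share was 2.48%, 2.48% and 2.47% in fasted libraries, against 2.21%, 2.05% and 2.46% in fed ones, and that of the spliced transcript 94.13% ± 0.044 in fasted and 94.32% ± 0.016 in fed libraries (SD, n = 3 each).

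The intron-keeping transcripts were minor, and their shares overlapped between the diets. ENSMUST00000230021.1 held 2.85%, 2.82% and 2.79% of Prph TPM in fasted libraries, against 2.93%, 2.84% and 2.63% in fed ones (exact permutation p = 0.9). The other, ENSMUST00000047104.14, held 0.114%, 0.162% and 0.131% in fasted libraries, against 0.125%, 0.368% and 0.162% in fed ones, with the high value in fed replicate 2. Tested as transcripts with limma over 33197 transcripts, 0 of the 9 listed for these genes had an adjusted p under 0.05, where 0.0271% of all did. The short Prph transcript had an unadjusted p under 0.05, 1 of 9 where 7.21% of all did, with 237.7, 237.7 and 228.8 TPM in fasted libraries, against 211.6, 179.0 and 221.2 TPM in fed ones (log2 fold change 0.21 with a standard error of 0.08; limma, adjusted p = 0.67, 0.56 to 0.86 over the alternatives). Without fed replicate 2 its log2 fold change was 0.12. It was the 1 transcript of the 9 whose fasted values lay above all fed values, where 9.38% of all tested transcripts did so.

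**Figure D4:**
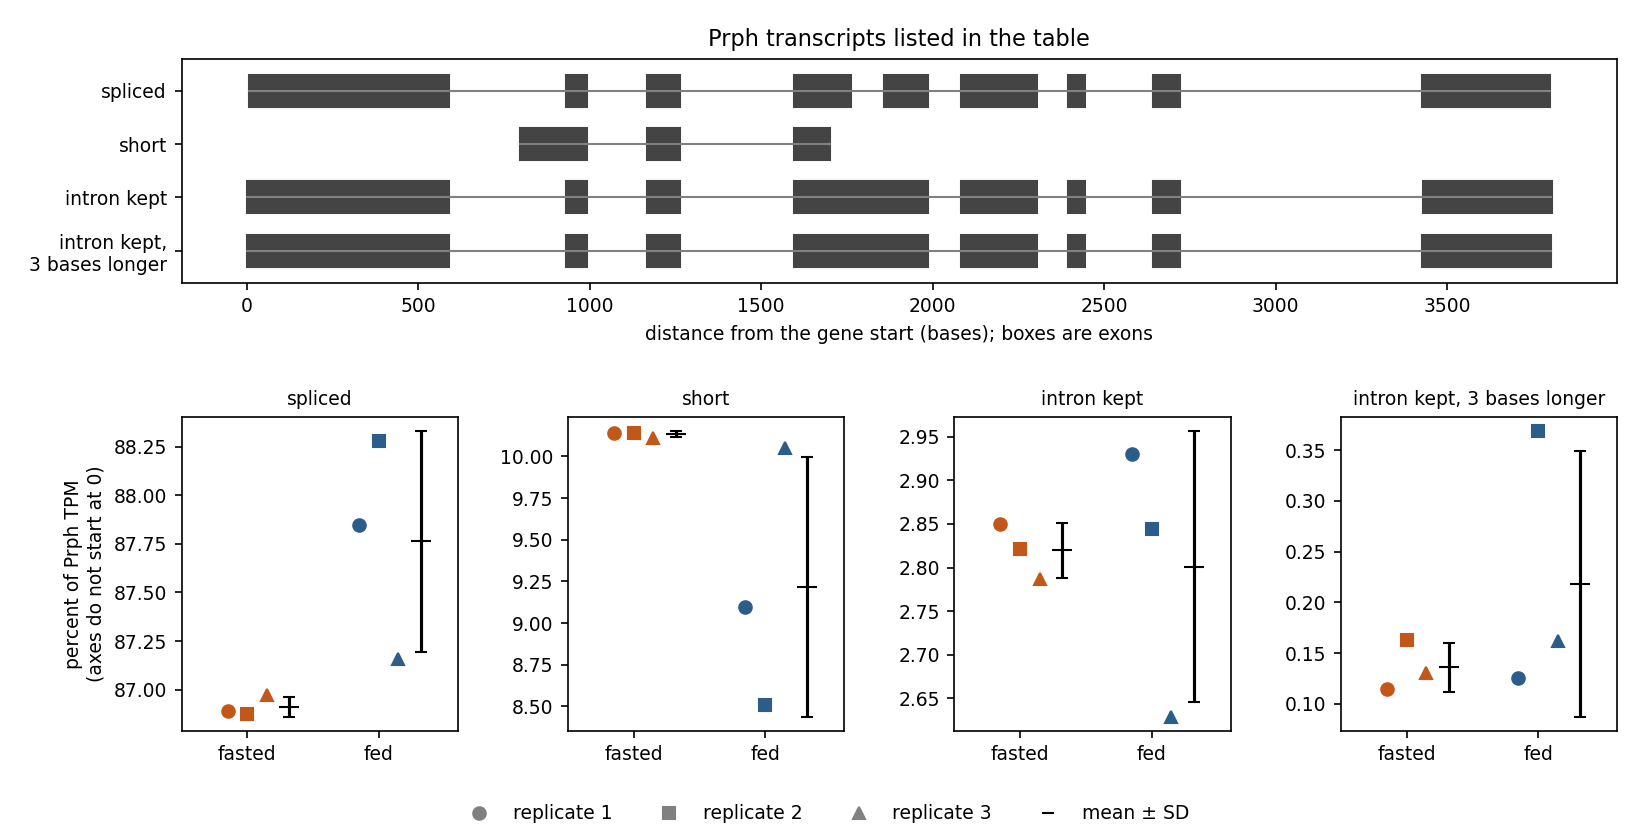
Above, exons (boxes) of the 4 listed Prph transcripts by distance from the gene start in bases. Below, each transcript's percent of Prph TPM in the 3 fasted and 3 fed libraries, with mean and SD, on axes that do not start at 0; the spliced and short forms differ by less than 1 percentage point between the group means.

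Genes that act on neurofilaments were described by a list of 30, among them kinases and phosphatases of the tails, motors that carry the filaments, linkers and proteins that degrade them. All 30 were tested, with 22 log2 fold changes above 0 and 8 below, a median of 0.06 and 0 passing, adjusted or not (limma). For 7 of the 30 the fasted values lay above all fed values, where 12.7% of all tested genes did so; 0 lay below all fed values. Kif5a, the kinesin that carries neurofilaments along axons, was at 461.9 ± 11.8 TPM in fasted and 418.1 ± 35.5 TPM in fed libraries (SD, n = 3 each; log2 fold change 0.15; limma, adjusted p = 0.50). Gsk3b, a kinase of the tails, was at 105.8 ± 5.19 TPM in fasted and 97.7 ± 3.58 TPM in fed libraries, and Ppp2ca, the catalytic subunit of a phosphatase that acts on them, at 123.1 ± 3.01 and 115.0 ± 4.49 TPM in fasted and fed libraries (limma, adjusted p = 0.50 for both). Others without overlap, named after their values were seen, included the Cdk5 activator Cdk5r1, the kinesin light chain Klc1 and the phosphatase subunit Ppp2r2b. Below 0, with overlap, were among others the protease Casp6 (3.95 ± 1.10 TPM in fasted and 4.99 ± 0.684 TPM in fed libraries) and the small heat shock protein gene Hspb1 (591.7 ± 14.4 TPM in fasted and 610.4 ± 16.0 TPM in fed libraries). The median of the list was -0.02 after rescaling by pan-neuronal genes, with 9 above 0 and 21 below.

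Trim2, whose product marks the neurofilament light chain for degradation, fell outside the naming rule and was picked after its values were seen. It was at 120.3 ± 7.34 TPM in fasted and 113.7 ± 3.44 TPM in fed libraries (SD, n = 3 each), with overlap.

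Of 14 other intermediate filament genes, 11 were tested, with 5 log2 fold changes above 0 and 6 below, a median of -0.03 and 0 passing, adjusted or not (limma). Vim, the vimentin of glia, fibroblasts and endothelium, was chosen after its values were seen as the most abundant of them, at 529.0 ± 9.37 TPM in fasted and 538.9 ± 29.9 TPM in fed libraries (SD, n = 3 each). Lmna, a nuclear lamin, was at 95.4, 94.2 and 94.2 TPM in fasted libraries, against 92.5, 88.6 and 94.1 TPM in fed ones, apart only in the first decimal (log2 fold change 0.04; limma, adjusted p = 0.66). Synm (synemin) was at 152.0 ± 3.91 TPM in fasted and 148.9 ± 2.31 TPM in fed libraries, and Bfsp1, a lens filament gene, at 2.17 ± 0.253 TPM in fasted and 2.04 ± 0.559 TPM in fed libraries. Des, the desmin of muscle, was at 1.67, 3.89 and 5.14 TPM in fasted libraries, against 4.04, 33.9 and 5.57 TPM in fed ones (limma, adjusted p = 0.53), with its high value in fed replicate 2, the library with the most muscle RNA. Nes (nestin) was at 11.8 ± 1.36 TPM in fasted and 13.5 ± 2.04 TPM in fed libraries, and Krt10 at 7.73 ± 1.13 TPM in fasted and 8.71 ± 0.858 TPM in fed libraries. Gfap, the filament of reactive glia, was below the limit for testing, at 0.317 to 0.688 TPM in fasted and 0.553 to 1.23 TPM in fed libraries. Krt8 stayed at or below 0.125 TPM, and Krt18 was listed at 0 in fasted replicates 1 and 2 and fed replicate 3.

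Markers of the neuron classes in which these filaments dominate were set beside them. The 18 markers of large myelinated neurons, where neurofilaments are most abundant, had a median log2 fold change of 0.09, with 14 above 0 and 0 passing (limma; 1 above 0 with an unadjusted p under 0.05), and summed to 2762 to 2993 TPM in fasted and 2806 to 2909 TPM in fed libraries. The median of these markers ran from 0.02 without fasted replicate 3 to 0.13 without fed replicate 3, and was 0.0081 after rescaling by pan-neuronal genes, with 9 above 0 and 9 below. The lowest fold change among them, picked after the values were seen, was that of Pvalb. It is a marker of muscle afferents that fast muscle also makes. Pvalb was at 201.3, 197.4 and 234.9 TPM in fasted libraries, against 214.9, 542.9 and 230.3 TPM in fed ones. It is part of the sum above, which was highest among fed libraries in fed replicate 2, the library with the most muscle RNA. A sum of these markers without Pvalb was not made. The largest part of the sum was Thy1, at 1050 ± 24.4 TPM in fasted and 971.7 ± 61.1 TPM in fed libraries (SD, n = 3 each). The 18 C-fibre markers, where peripherin is prominent, had a median of 0.04, with 11 above 0 and 0 passing (limma; 1 below 0 with an unadjusted p under 0.05), and summed to 5410 to 5697 TPM in fasted and 5281 to 6286 TPM in fed libraries. Calca, picked after the values were seen, was the largest part of the C-fibre sum. It was at 2715 ± 92.6 TPM in fasted and 3035 ± 419.5 TPM in fed libraries, with overlap (SD, n = 3 each). A C-fibre sum without Calca was not made. The C-fibre median was -0.02 both without fed replicate 2 and without its fasted counterpart of the same number, 0.06 without fed replicate 1, and -0.04 after rescaling by pan-neuronal genes.

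**Figure D5:**
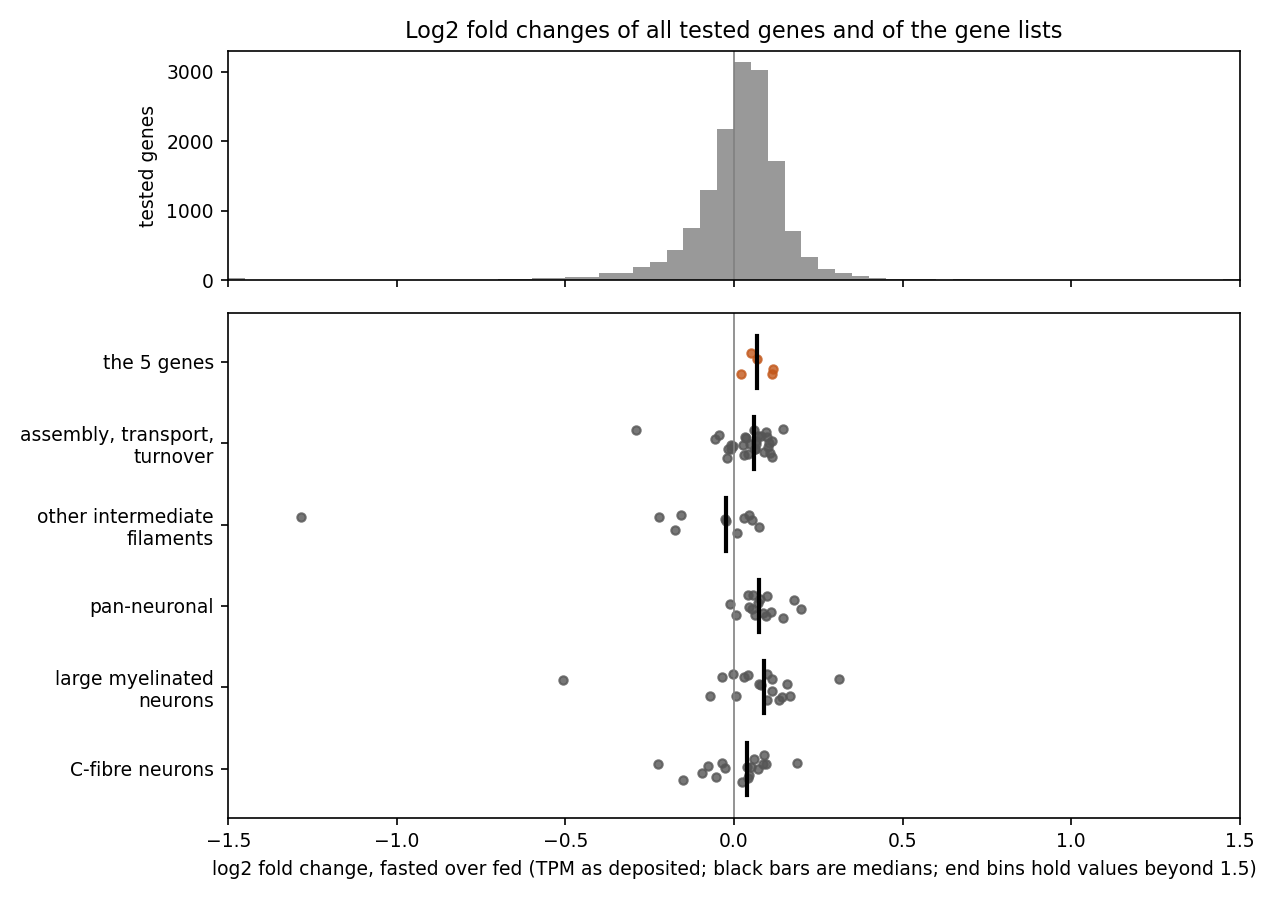
Above, the number of tested genes by log2 fold change, fasted over fed, on TPM as deposited. Below, each point is a gene of the 5 members or of a list, with the median as a black bar: 0.07 for the members, 0.06 for the assembly, transport and turnover list, -0.03 for other intermediate filaments, 0.07 for pan-neuronal, 0.09 for large myelinated and 0.04 for C-fibre genes.

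The genes with the most similar pattern over the 6 libraries were found by the root mean square distance between centred log2(TPM + 1) values, among the 9238 genes averaging 10 TPM or more. Nefl was nearest to Nap1l2 (distance 0.0072 in log2 units), Lgi3 (0.012) and Auh (0.014), against a median distance of 0.088 to all genes searched. Nefm was nearest to Nap1l2 (0.017), Tesc (0.021) and C87436 (0.022), with Nefl next at 0.022. Nefh was nearest to Fbxo31 (0.013), Lias (0.013) and Zfp330 (0.015), and its distance to Nefm was 0.036 and to Nefl 0.044. Prph was nearest to U2af2 (0.0060), Tafa1 (0.0099) and Dbnl (0.011), and lay nearer to Ina (0.037) than to Nefl (0.061), Nefm (0.069) or Nefh (0.074). Ina was nearest to Ctbp1 (0.011), Parp6 (0.011) and Srm (0.011). These distances describe 6 libraries, which share their scaling, and carry no test. Each of Nefl, Nefm and Nefh lay nearer to the other neurofilament genes than to Prph or Ina. Many other genes lay nearer still. Among the 9238 genes, Nefm was 41st and Nefh 676th from Nefl. From Nefm, Nefl was 4th and Nefh 121st, and from Nefh, Nefm was 107th and Nefl 318th.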

How the data were processed

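The authors deposited TPM for each transcript of 6 libraries. The submitters' processing notes name Salmon 1.6.0, Trim Galore 0.6.6, DESeq2 1.34.0 and FastQC 0.11.9 and the builds mm10 and GRCm38, without roles, and the sources used here give no annotation release. Per the labels' protocols, tissue was digested with papain, Collagenase Type II (2.5 mg/ml) and Dispase II (1 mg/ml), a 15% BSA step enriched the neurons, and the mRNA kit was stranded. Depth is lost in TPM, so no count test was run.

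TPM was summed per gene symbol. Genes, and separately transcripts, with a mean of at least 1 TPM were tested on log2(TPM + 1) with limma 3.58.1 under R 4.3.3 (pseudocount 1, group as the only term, trended empirical Bayes, two-sided, threshold 0.05); fold changes are on that scale. Proportions were compared by exact permutation tests, two-sided. Coordinates and transcript sequences are from GENCODE M21 (GRCm38), which held all 9 transcripts. Python 3.11.15 and matplotlib 3.10.9 drew the figures. The limma and permutation steps were tested on simulated data. Members and lists were chosen with earlier results of these data known. Genes named from the assembly and other-filament lists are the 3 with the smallest p per direction, and likeness is shown by the 3 nearest genes per member, without predicted or Rik names; exceptions are stated, and some listed genes are not reported by name here. Alternatives were other pseudocounts, filters and scalings, robust empirical Bayes, a replicate block, the main transcript alone and leaving out each library; weighting by length was added after seeing the data.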

Additional observations from a re-analysis of the deposited data

How the results depend on the processing

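No alternative moved any of the 5 genes past the adjusted threshold. Log2 fold changes of Nefl ran from 0.03 to 0.20 and of Nefm from 0.03 to 0.18 over 17 alternatives, none below 0. Not all 17 could change the sign. The filters, robust empirical Bayes and the replicate block leave the estimate as it is, and the pseudocounts nearly so. Only the scalings and leaving out a library bear on the direction. Rescaling by pan-neuronal genes turned Nefh to -0.031, Prph to -0.013, its spliced transcript ENSMUST00000024249.4 to -0.027, ENSMUST00000230021.1 to -0.0018 and Ina to -0.058. Ina was also below 0 under scaling by median of ratios (-0.0096), by a TMM-type factor (-0.0087) or by quantiles (-0.0087) and without mitochondrial genes (-0.010), and ran from -0.0040 to 0.057 with 1 library left out. Of the sizes that depend on 1 library, the log2 fold change with 1 library left out ran from 0.057 to 0.148 for Nefl, 0.074 to 0.168 for Nefm, 0.013 to 0.108 for Nefh and 0.034 to 0.106 for Prph, lowest without fed replicate 2 in each case.

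The count of all genes that passed was 1, and 2 with a pseudocount of 0.1 or 0.5, 0 without a filter (limma; 2083 with an unadjusted p under 0.05), and 1 to 6 with 1 library left out (2 without fasted replicate 1 or fed replicate 2, 3 without fed replicate 1, 6 without fed replicate 3 and 4 without fasted replicate 3). The count of transcripts was 9, and 4 with a mean of at least 5 TPM and 4 to 15 with 1 library left out (4 without fasted replicate 1, 15 without fasted replicate 2, 5 without fed replicate 1). With the replicate block, the summed TPM difference of 0.096 had an exact sign-flip p of 0.25, the smallest that 3 pairs can give, 0 transcripts passed (limma; 2409 with an unadjusted p under 0.05), and Nefm had an unadjusted p of 0.035 and an adjusted p of 0.43 (limma). No label ties equal replicate numbers to a shared animal or day. Deviations of equal-numbered libraries correlated at 0.093, 0.114 and 0.066 across genes, and 6 of 6 libraries correlated best with their own number. These 6 outcomes are not independent, since each correlation counts for both its fasted and its fed library. The deviations were also centred within each group. This is a weak hint from the data only.

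With 1 library left out, the difference in Prph percent ran from -0.969 to 0.102 percentage points, in log2 Nefm/Nefl from -0.012 to 0.019, in log2 Prph over neurofilaments from -0.087 to 0.0081, in the ENSMUST00000230021.1 share from -0.067 to 0.083 percentage points and in the log2 fold change of ENSMUST00000111089.7 from -0.132 to 0.096. The causes of these changes were not tested. The other alternatives run kept the direction of the proportions and isoform shares, among them the replicate block, which cannot change these differences. Medians of gene lists moved by more than the library spread in 13 cases. Of the other secondary comparisons, list medians and single transcripts together, 303 stayed the same and 5 turned in sign. The 303 include settings that leave the estimate as it is, such as the replicate block. TPM without read counts cannot tell how much of the spread of low transcripts is counting error.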
